A study of Mus musculus with 2 samples.

Results

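The genes described here are 46 members of the DNA repair and Fanconi anaemia pathways, measured in mouse hematopoietic stem cells (HSC). They were taken by gene symbol from a named list of repair genes and not by a threshold on a measured value. Earlier results of these data were known when the list was made. All 46 were matched, among 42462 genes with a name in the deposited gene tables. They fall into 7 repair routes: 10 genes of the Fanconi core complex and its substrate pair, 13 of homologous recombination, 5 of non-homologous end joining, 4 damage checkpoint kinases, 5 of base excision and single-strand break repair, 2 of mismatch repair and 7 of nucleotide excision repair.

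HSC are the bone marrow cells that renew themselves and give rise to every blood lineage. DNA repair in these cells is studied because inherited loss of Fanconi genes leads to bone marrow failure. In the Fanconi pathway a core complex of several proteins attaches ubiquitin to FANCD2 and FANCI at DNA strands that are covalently linked to each other, and nucleases and homologous recombination then finish the repair. Breaks through both strands are either copied from the sister chromatid by homologous recombination or joined directly by end joining, damaged bases are cut out by base or nucleotide excision, and copying errors are removed by mismatch repair.

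Total RNA was depleted of ribosomal RNA and sequenced from HSC of male C57BL/6J mice aged 5 to 6 weeks, with no genetic change or treatment named in the labels. There was 1 group of 2 biological replicates, with 100 ng of starting RNA and a ScriptSeq library each. The labels give the replicates separate biosamples but the same donor entry, so whether they are separate animals is not known here, and the spread between them may be technical. The labels read for this account do not state by which surface markers the cells were sorted. With 1 group there is no comparison between conditions and no test. All statements below are descriptions of these 2 libraries.

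Replicate 1 held 27901074 counts and replicate 2 held 48490188. The members took 0.293% of the counts of replicate 1 and 0.336% of those of replicate 2, between 77 and 16666 counts per gene and library. Levels are in TPM, which divides counts by the effective length of a gene's transcripts and scales them to a constant sum, and each comes with deposited interval bounds that cover counting and read assignment but not differences between animals. Of 10 genes used as HSC and progenitor markers, 9 had at least 1 TPM in both libraries, beside 44.0% of protein-coding genes. They were led by Cd34 at 145.16 and 166.36 TPM, while Slamf1 had 0.42 and 0.43. The list holds genes of both HSC and progenitors, so the count does not tell these cells apart. Genes of neutrophils were also present, with a summed level of 3018 TPM over 8 genes in replicate 1 and 1110 TPM in replicate 2. Over 5 B cell genes the sum was 5.05 and 3.26 TPM, nearly all of it Cd79b, and Pax5 was at 0 in both libraries. Over 4 T cell genes it was 1.55 and 1.63 TPM, nearly all of it Cd3g, and Trac was at 0. In bulk RNA fewer cells of a type and less RNA per cell cannot be told apart.

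Stretches of DNA just before the starts of 4 members are shown because they hold features that recur across the list: starts shared back to back with another gene, and short motifs of cell cycle promoters. The sequences are RefSeq reference sequence on GRCm38.p6, 5′ to 3′ on the strand of the member, and hold only bases that no annotated exon covers. Capitals mark CCAAT and the E2F letters TTTCCCGC, TTTCGCGC, TTTGCCGC and TTTGGCGC on either strand.
Brca1, chr11:101551956-101552148, minus strand, up to the start of Nbr1: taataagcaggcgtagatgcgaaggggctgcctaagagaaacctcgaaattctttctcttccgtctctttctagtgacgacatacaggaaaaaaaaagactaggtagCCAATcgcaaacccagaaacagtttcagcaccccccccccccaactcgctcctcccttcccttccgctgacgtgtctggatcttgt
Chek2, chr5:110839778-110839978, plus strand, up to the start of Hscb: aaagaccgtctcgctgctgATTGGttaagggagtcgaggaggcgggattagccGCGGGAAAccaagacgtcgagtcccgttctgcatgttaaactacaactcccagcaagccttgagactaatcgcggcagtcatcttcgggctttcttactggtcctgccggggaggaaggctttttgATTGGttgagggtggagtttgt
Pms2, chr5:143909848-143909963, plus strand, up to the start of Aimp2: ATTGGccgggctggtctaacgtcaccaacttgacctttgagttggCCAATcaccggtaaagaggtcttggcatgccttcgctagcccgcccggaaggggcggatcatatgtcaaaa
Brca2, chr5:150522371-150522620, plus strand, with no protein-coding start on the other strand within 1000 bases: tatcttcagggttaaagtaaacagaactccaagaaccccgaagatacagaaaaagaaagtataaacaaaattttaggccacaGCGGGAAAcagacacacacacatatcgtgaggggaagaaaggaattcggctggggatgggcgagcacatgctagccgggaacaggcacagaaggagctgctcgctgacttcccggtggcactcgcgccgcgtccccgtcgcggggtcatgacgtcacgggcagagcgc

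A start of another protein-coding gene on the other strand within 1000 bases, as in the stretches of Brca1, Chek2 and Pms2, was annotated for 17 of the 46 members, or 37.0%. Over all protein-coding genes the share was 10.9%, and over those with a mean of at least 1 TPM it was 18.0%. Brca1 at 6.26 and 8.67 TPM lies 194 bases from Nbr1, an autophagy receptor gene at 13.91 and 18.53 TPM. Atm starts 307 bases from Npat, a regulator of histone genes, and the pair stood at 7.97 and 8.52 TPM for Atm against 4.50 and 7.76 TPM for Npat. Prkdc shares its start region with Mcm4, a subunit of the replicative helicase, at a distance of 466 bases and with 4.00 and 4.56 TPM against 16.10 and 19.87 TPM. The gap was 40 bases between Xpc and Lsm3, a gene of an RNA splicing protein with 61.59 and 68.22 TPM. Lig4, the member of lowest gene TPM, lies 21 bases from Abhd13, which had 2.49 and 2.80 TPM. Xrcc1 starts 171 bases from Pinlyp, which was at 0 in both libraries. A close start thus went with neighbours both above and below the member.

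RefSeq promoter windows of the same length were matched for 39 members, in 42 windows, and entries for Xrcc2, Xpc, Fancd2, Rad50, Prkdc, Nbn and Ercc3 were missing. Both strands were searched. The E2F letters, of a factor family that acts at entry into S phase, were in 7 windows (16.7%), those of Brca2, Chek2, Fancg, Msh6 and Xrcc6 and both of Rad51c, against 2.26% of all windows and 4.30% of windows of genes with a mean of at least 1 TPM. CCAAT was in 27 windows (64.3%) against 37.4% and 38.4%. The ETS letters CCGGAAG were in 12 windows (28.6%) against 8.86% and 19.7%. The GC box GGGCGG was in 26 windows, 61.9% against 63.3% of those of expressed genes, so it did not set the members apart from them. TTTGAA, the core of the CHR element of mitotic genes, was in 2 windows (4.76%) against 12.4% of windows of expressed genes, and the GATA letters AGATAA were in none of the 42 against 6.33%. A match is a description of the letters and shows no binding.

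Of the 46 members, 45 had at least 1 TPM in both libraries, beside 44.0% of 21474 protein-coding genes. The exception was Lig4. The deposited TPM is scaled over all features. Scaled over protein-coding genes alone, Lig4 had 1.72 and 1.63 TPM and all 46 members reached 1 TPM, and no share of all genes was taken on that scale. The median member had 4.29 TPM in replicate 1 and 5.82 TPM in replicate 2, below the medians of 5.53 and 6.70 TPM over protein-coding genes with a mean of at least 1 TPM. Among all protein-coding genes, with those at 0 included, the median member lay at percentile 72.8 and 74.9. Of the list, 34 members lay between 1 and 10 TPM in each library, and 7 reached 10 TPM in each. Those 7 were Xrcc6, Parp1, Msh6, Xpc, Rad50, Mre11a and Atr. The shares of all protein-coding genes in these ranges were not computed, so the counts do not set the members apart. Every member's reads were assigned to it alone at the gene level, with a deposited SD of the count of 0.

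**Figure D1:**
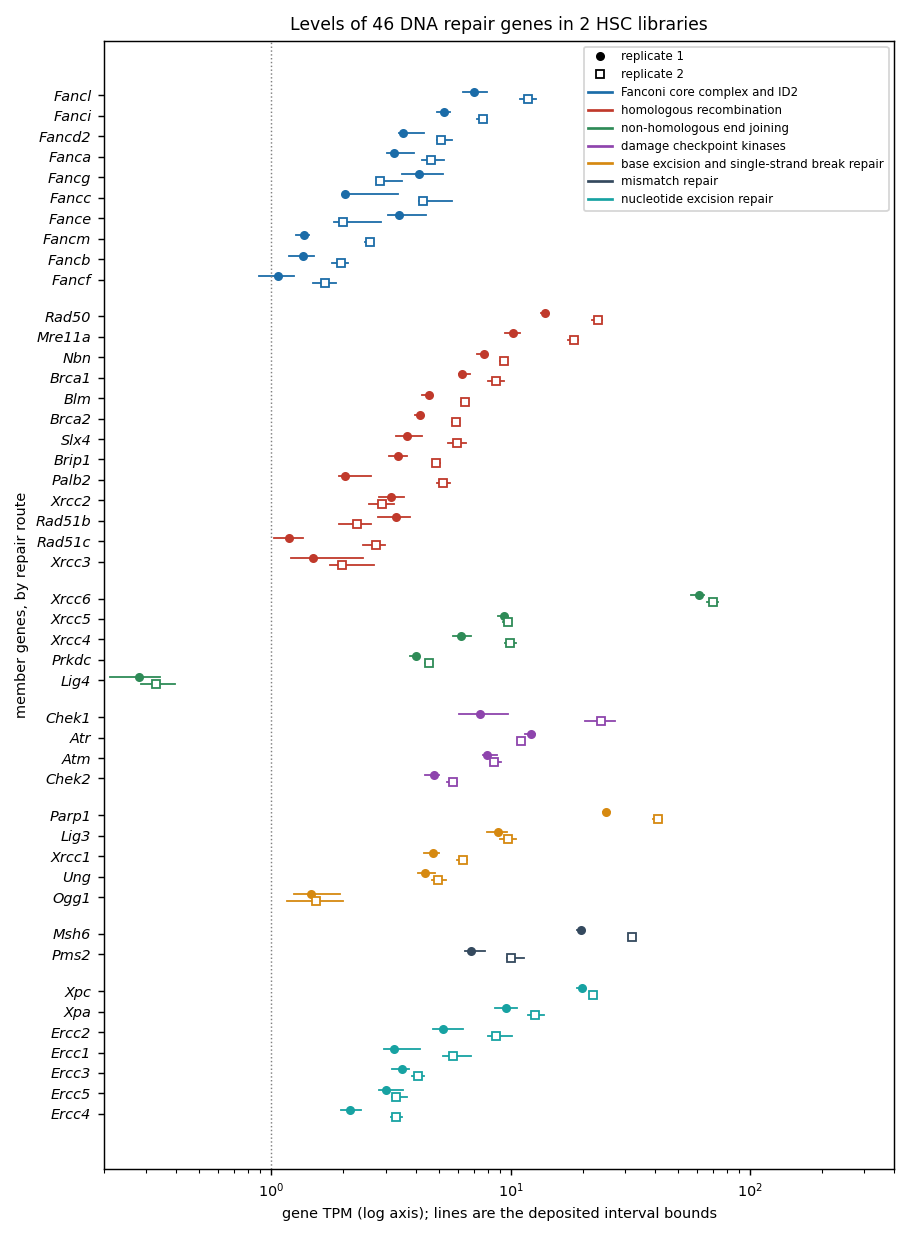
Gene level of the 46 members in TPM on a log axis, grouped by repair route, with replicate 1 as filled circles, replicate 2 as open squares and the deposited bounds as lines. All members but Lig4 lie to the right of the dotted line at 1 TPM in both libraries, and Xrcc6 is the furthest to the right.

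In the Fanconi route, Fancl was the highest gene at 7.03 and 11.79 TPM. It encodes the ubiquitin ligase subunit of the core complex. The substrate pair followed, with Fanci at 5.26 and 7.62 TPM and Fancd2 at 3.56 and 5.13 TPM. Fanci was above Fancd2 in both libraries with bounds that did not overlap, by 1.48-fold in the means. Of the core scaffold genes, Fanca had 3.24 and 4.65 TPM, and Fancg, which binds FANCA in one subcomplex, had 4.15 and 2.83 TPM. Their order was opposite in the 2 libraries. Fancc had 2.03 and 4.30 TPM and its partner Fance 3.42 and 1.99 TPM, again with opposite orders. Fancf, an adaptor encoded by a gene with 1 transcript, had 1.07 and 1.68 TPM and was the lowest gene of the route. Fancb, the X-linked partner of FANCL, had 1.36 and 1.95 TPM, and Fancl was 5.69-fold above it in the means, in both libraries. Fancm, the translocase that anchors the complex on DNA, had 1.37 and 2.58 TPM and lay below the helicase gene Blm, at 4.54 and 6.44 TPM, in both libraries.

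Fancl and Vrk2 on the other strand share 462 exonic bases, 13.7% of those of Fancl, and Vrk2 had 7.79 and 6.18 TPM. Fanci shares 16.0% of its exonic bases with Polg, at 5.69 and 4.54 TPM. Such overlaps with a protein-coding gene on the other strand were annotated for 16 members (34.8%), beside 18.4% of protein-coding genes with a mean of at least 1 TPM. Neither the labels nor the headers state whether strand was used in counting. The counts of all 16 partners, like those of the members, carry a deposited SD of 0 in both libraries.

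In homologous recombination the highest genes encode the MRN complex, which senses broken ends and starts their resection. Rad50, its ATPase, had 13.94 and 23.03 TPM. Mre11a, its nuclease, had 10.20 and 18.30 TPM, and Nbn, the subunit that recruits ATM, had 7.73 and 9.40 TPM. The order Rad50, Mre11a, Nbn held in both libraries with bounds that did not overlap, although Mre11a and Nbn were level by full coding transcripts (a mean log2 ratio of -0.02).

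The BRCA genes and their partners stood lower. Brca1 had 6.26 and 8.67 TPM, with bounds of 6.07 to 6.73 in replicate 1 and 8.04 to 9.34 in replicate 2. Brca2, which acts at the strand exchange step of recombination, had 4.19 and 5.88 TPM, and Brca1 was above it by 1.48-fold in the means, with a mean log2 ratio of -0.33 in CPM. Palb2, the bridge between them, had 2.02 and 5.23 TPM, below Brca2 in both libraries. Brip1, a helicase that binds BRCA1, had 3.38 and 4.89 TPM, below Brca1 in both libraries and, by 1.33-fold, below Blm. Slx4, the scaffold for structure-specific nucleases, had 3.69 and 5.96 TPM. In this group Palb2 was the gene with the largest spread between the libraries, at 3.63 ± 2.27 TPM (SD, n = 2).

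Rad51b, Rad51c, Xrcc2 and Xrcc3 had the lowest mean levels of the route, although Palb2 lay below Xrcc2 and Rad51b in replicate 1. Xrcc2 had 3.16 and 2.89 TPM, Rad51b 3.33 and 2.27 TPM, Rad51c 1.18 and 2.74 TPM, and Xrcc3 1.49 and 1.98 TPM. They encode subunits of 2 complexes that assist recombination, and none of the 3 pairs compared among them, Rad51b with Rad51c, Xrcc2 with Xrcc3 and Rad51c with Xrcc3, was ordered. Rad51b and Rad51c changed places between the libraries.

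By gene TPM, non-homologous end joining held both the highest and the lowest member. Xrcc6, which encodes the Ku70 subunit of the Ku ring that grips DNA ends, had 60.98 and 70.06 TPM. Xrcc5, for its Ku80 partner, had 9.38 and 9.73 TPM, the closest replicate agreement of the 10 highest members at 9.56 ± 0.25 TPM (SD, n = 2). The gene levels of these obligate partners thus differed by 6.86-fold. The effective length of Xrcc6 was 660 and 783 nucleotides, since much of its TPM was assigned to short transcripts, and by full coding transcripts alone it had 14.72 and 20.92 TPM, 1.86-fold above Xrcc5. Prkdc, for the catalytic kinase that binds Ku, had 4.00 and 4.56 TPM, below Xrcc5 by 2.23-fold in TPM, while in CPM (counts scaled to the library total and not divided by length) the mean log2 ratio of Prkdc to Xrcc5 was 1.09. Xrcc4, the scaffold of the ligase, had 6.18 and 9.90 TPM. Lig4, the ligase itself, had 0.28 and 0.33 TPM from 77 and 162 counts. Xrcc4 was above its partner Lig4 by 26.4-fold, and Lig3, a ligase of other routes, was above Lig4 by 30.3-fold, or 14.9-fold by full coding transcripts.

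Among the checkpoint kinases, Atr, which responds to single-stranded DNA at stalled forks, had 12.15 and 11.02 TPM. Atm, which responds to broken ends, had 7.97 and 8.52 TPM, and lay below Atr in both libraries by 1.41-fold. By full coding transcripts Atm lay above Atr in both libraries, with a mean log2 ratio of 0.22, and in CPM too (0.30). Chek2, the effector kinase of ATM, had 4.76 and 5.73 TPM from its only transcript. Chek1, the effector of ATR, had 7.46 and 23.87 TPM, the largest spread of any member at 15.7 ± 11.6 TPM (SD, n = 2). Chek1 was above Chek2 in both libraries, but by full coding transcripts the pair was nearly level, at a mean log2 ratio of -0.10. Atr was above Chek1 in replicate 1 and below it in replicate 2.

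In base excision and single-strand break repair, Parp1, the sensor that builds poly(ADP-ribose) at breaks, had 25.05 and 41.05 TPM. It was 5.99-fold above Xrcc1, the scaffold it recruits, which had 4.75 and 6.29 TPM. Lig3, the ligase bound by XRCC1, had 8.82 and 9.69 TPM. Lig3 was above Xrcc1 by 1.68-fold in gene TPM and below it by full coding transcripts, at a mean log2 ratio of Xrcc1 to Lig3 of 0.30. Of Lig3's exonic bases 25.1% are shared with Rffl on the other strand, at 3.03 and 3.23 TPM. Of the 2 glycosylases, which cut damaged bases from the sugar backbone, Ung, which removes uracil, had 4.40 and 4.98 TPM. Ogg1, which removes oxidised guanine, had 1.46 and 1.54 TPM from 138 and 130 counts and lay 3.13-fold below Ung.

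Mismatch repair had 2 members. Msh6, which recognises mispairs, had 19.73 and 32.03 TPM from its only transcript, and more counts than any other member, 16666, in replicate 2. Pms2, the endonuclease subunit, had 6.79 and 10.03 TPM, 3.08-fold below Msh6. Little of the Pms2 level lay in full coding transcripts, 0.55 and 1.23 TPM, and on that scale Msh6 was 29.1-fold above it.

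In nucleotide excision repair the damage sensor Xpc led with 19.76 and 22.08 TPM. Xpa, which verifies the lesion, had 9.57 and 12.64 TPM, below Xpc by 1.88-fold, or 3.78-fold by full coding transcripts. The helicase genes of the TFIIH complex followed, Ercc2 with 5.23 and 8.71 TPM and Ercc3 with 3.50 and 4.09 TPM. Ercc1 and Ercc4 encode the nuclease pair that cuts on the 5′ side of a lesion and had 3.24 and 5.75 TPM and 2.13 and 3.30 TPM. Ercc5, for the nuclease on the 3′ side, had 3.0 and 3.31 TPM and was not ordered against Ercc4. Ercc2 was above Ercc3, Ercc1 above Ercc4 and Slx4 above Ercc4 in both libraries. By full coding transcripts all 3 ratios were below 1 in both libraries, with mean log2 values of -0.68, -2.44 and -0.40, and in CPM that of Ercc1 to Ercc4 was -1.69.

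By the listed members, the routes differed in level relative to the median member, and the further genes described below gave another order. On the log2 (TPM + 0.1) scale, the median of mismatch repair lay above that of all members by 1.51 ± 0.14 (SD, n = 2), that of the checkpoint kinases by 0.78 ± 0.07 and that of end joining by 0.62 ± 0.15. Base excision lay at 0.13 ± 0.02, homologous recombination at -0.10 ± 0.16 and nucleotide excision at -0.15 ± 0.19, the last 2 differing from each other by less than their spread. In CPM those 2 routes lay at 0.80 and -0.29, and by full coding transcripts at 0.12 and -0.52. The Fanconi route was the lowest at -0.54 ± 0.26, with medians of 3.33 and 3.56 TPM, and it stayed the lowest by full coding transcripts, at -1.06. On that scale mismatch repair lay at 0.44, below end joining at 1.14 and the checkpoint kinases at 0.73. The order of the upper routes also moved with single genes: mismatch repair has 2 members and lay at 0.71 without Msh6, and end joining lay at 0.20 without Xrcc6.

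Along the list ordered by mean TPM, only 3 of 45 neighbouring pairs kept their order in both libraries with bounds that did not overlap in either: Xrcc6 above Parp1, Parp1 above Msh6, and Fancf above Lig4. Over all 1035 pairs of members 797 were ordered in this way, or 77.0%. By full coding transcripts Xrcc6 lay below Parp1, at 14.72 and 20.92 against 24.03 and 31.22 TPM. In CPM Xrcc6 was also below Parp1, at 125 and 147 against 275 and 308. Parp1 and Msh6 changed order between the libraries on both of these scales. Of 34 pairs of genes that work together or in parallel, 26 were ordered. The 8 that were not are Fanca with Fancg, Fance with Fancf, Fancc with Fance, the 3 pairs among Rad51b, Rad51c, Xrcc2 and Xrcc3, Atr with Chek1, and Ercc4 with Ercc5.

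**Figure D2:**
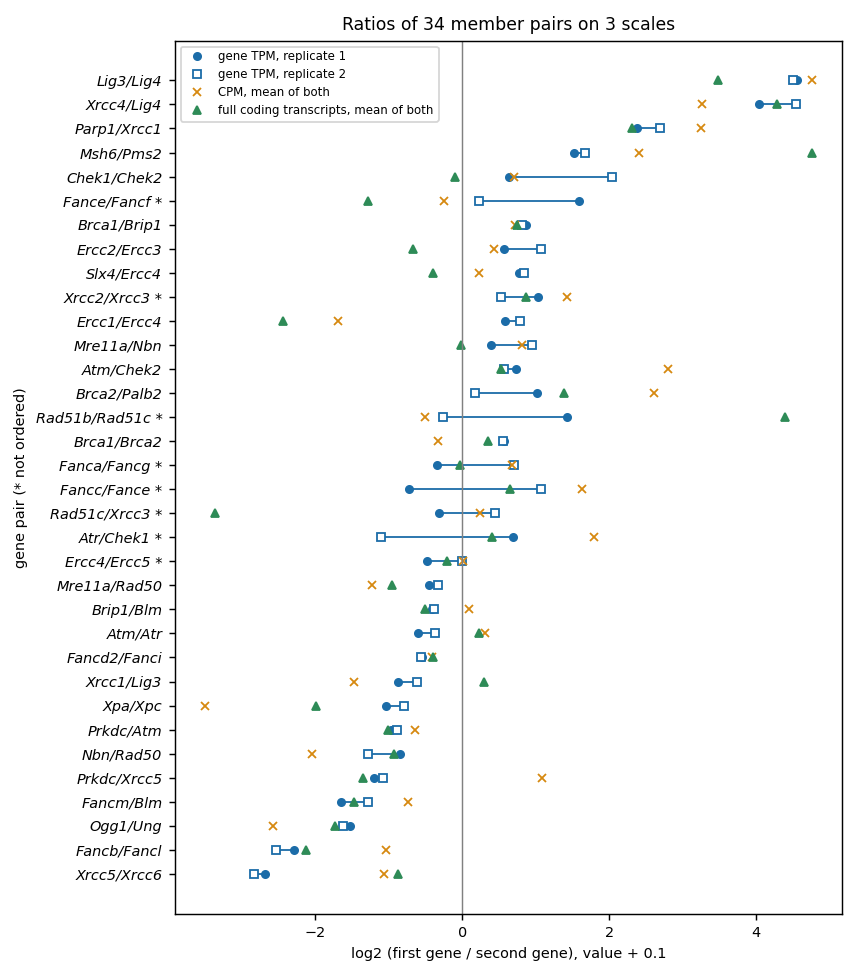
Log2 ratio of the first gene to the second in 34 member pairs, as gene TPM in replicate 1 (filled circles) and replicate 2 (open squares), and as the mean of both libraries in CPM (crosses) and in full coding transcripts (triangles), each with 0.1 added. Pairs with an asterisk were not ordered; Lig3/Lig4 and Xrcc4/Lig4 lie furthest to the right and Xrcc5/Xrcc6 furthest to the left in gene TPM.

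Gene TPM sums all transcripts of a gene, and not all of them encode the whole protein. A transcript was called full coding when it is annotated as complete and its coding sequence is at least 90% of the longest complete one of the gene. Coding lengths came from GENCODE M21, while the deposited transcript lengths belong to the quantification, for which M4 is named. For Rad51b-202 the M21 coding length of 1050 exceeds the deposited length of 829 nucleotides. Its full coding call, at 2.55 and 2.06 TPM, is therefore unsure and enters the counts given here. In full coding transcripts 36 of the 46 members had at least 1 TPM in both libraries, beside 38.5% of protein-coding genes, and the median member had 3.06 and 3.92 TPM. In 13 members at least 90% of the TPM was full coding in both libraries, among them Brca2, Nbn, Blm, Xrcc4, Xrcc5, Chek2, Xrcc1, Msh6, Ercc3 and Xpc. Of the 45 members with a mean of at least 1 TPM these were 12 (26.7%), beside 43.5% of protein-coding genes at that level. Of the 39 members with at least 2 transcripts, 9 (23.1%) had under 50% of their TPM in full coding transcripts in both libraries, near the 23.6% of all detected genes of this kind. They were Fancc, Fance, Slx4, Rad51c, Xrcc6, Pms2, Ogg1, Ercc1 and Ercc2.

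Rad51c had almost none of its TPM in full coding transcripts, 2.54% in replicate 1 and 0 in replicate 2. Its transcript Rad51c-204, annotated as a target of nonsense-mediated decay, held 97.56% of the gene's TPM in replicate 1 and 67.13% in replicate 2, and full coding transcripts had 0.03 TPM and were listed at 0 in replicate 2. Ercc1 was listed at 0 in full coding transcripts in replicate 1 and had 0.98 TPM in replicate 2. Its leading transcript in replicate 1 was one with a retained intron, Ercc1-202, at 50.54% against 11.73% in replicate 2, where the noncoding Ercc1-207 led with 26.83%. In Pms2 the leading transcript of both libraries, Pms2-210, retains an intron and held 21.82% and 24.68%. Xrcc6-209, a fragment of 471 nucleotides annotated as coding, held 41.66% of the TPM of Xrcc6 in replicate 1 and 16.35% in replicate 2, while Xrcc6-210 was listed at 0 in replicate 1 and held 30.80% in replicate 2. The complete transcript Xrcc6-201 held 23.55% and 28.84%. These percentages are shares of TPM, which is divided by length, and not of counts. Of the gene's 3476 and 7121 counts, Xrcc6-201 held 2383 and 4904.

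**Figure D3:**
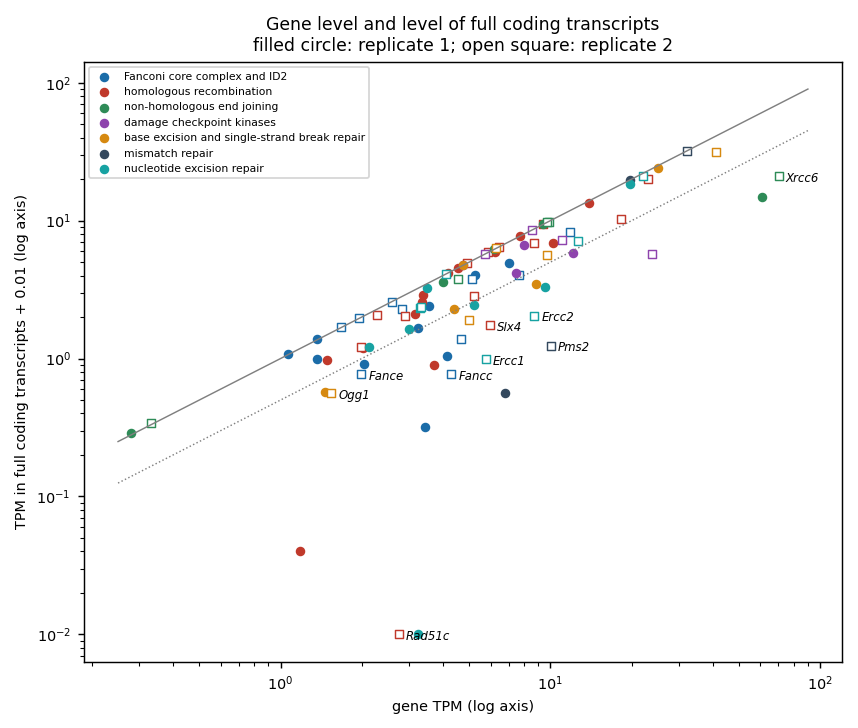
TPM in full coding transcripts (plus 0.01) against gene TPM for the 46 members, both on log axes, with replicate 1 as filled circles and replicate 2 as open squares; the solid line marks equal values and the dotted line 50%. The 9 named members lie below the dotted line in both libraries, with Rad51c and, in replicate 1, Ercc1 furthest below it.

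The same transcript led in both libraries in 24 of the 39 members with at least 2 transcripts, 61.5%, beside 74.4% of 7318 detected genes of this kind. In 21 of these 24, with the unsure call of Rad51b included, it was full coding, the others being Rad51c, Ung and Pms2. The leading transcript differed in 15. In Palb2 it was Palb2-202 in replicate 1, at 43.64% against 1.32% in replicate 2, and Palb2-203 in replicate 2, at 52.81% against 14.73% in replicate 1. Both are full coding, and in replicate 1 their bounds overlapped (0.00593 to 1.12 TPM and 0.0383 to 1.15 TPM). By posterior mean isoform percent Palb2-203 led in both libraries, and the count of members with a shared lead was 26, beside 74.4% of genes. In Fancg it was Fancg-209, with a retained intron, at 43.20% in replicate 1, and the complete Fancg-201 at 81.01% in replicate 2, against 24.83% in replicate 1. In Fanca the retained-intron transcript Fanca-208 led in replicate 2 with 52.76% and was listed at 0 in replicate 1.

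Between the replicates, 41 of the 46 members had a higher TPM in replicate 2. The 5 with a lower one were Fance, Fancg, Rad51b, Xrcc2 and Atr. The share of all genes with a higher TPM in replicate 2 was not computed, so the count stands without it. The whole TPM scale was shifted in the same direction, by a median of 0.29 (log2) over 9900 protein-coding genes with a mean of at least 1 TPM, and by 0.05 in CPM. The members' median was 0.48 in TPM and 0.25 in CPM, so relative to the median protein-coding gene they lay 0.19 higher in TPM and 0.21 higher in CPM. By TPM 28 of the 46 members exceeded the median gene, and by CPM 30 did. Bounds did not overlap for 33 members that were higher in replicate 2 and for 4 that were lower, beside 57.7% and 13.3% of the 9900 genes.

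A difference of over 2-fold in TPM with bounds that did not overlap was found for 4 members, Chek1, Palb2, Rad51c and Fancc, all higher in replicate 2, beside 7.01% of the 9900 genes in that direction and 9.27% in either. No member was lower by this rule, beside 2.26% of the genes. The 4 members are 8.70% of the list, a share near the background, although the list includes Lig4, whose mean was too low to be called. Chek1 was 3.20-fold higher in replicate 2 in TPM and 1.36-fold higher in CPM, from 1188 and 2800 counts. Palb2 was 2.59-fold higher in TPM and 1.56-fold in CPM, Rad51c 2.32-fold and 1.52-fold, and Fancc 2.12-fold and 1.21-fold. Fancc was not past 2-fold by posterior mean TPM or FPKM, which left the other 3 members, beside 8.68% and 7.78% of the genes in either direction. By full coding transcripts, no bounds were used and a mean of at least 1 TPM in such transcripts was needed. On that scale the members past 2-fold were Fancg, Palb2 and Xpa, all higher in replicate 2, beside 9.42% of genes. Fance, Pms2 and Ercc1, higher in replicate 2, and Rad51c, lower, were past 2-fold below that mean and were not counted.

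The effective length used in TPM moved with these differences. In replicate 2 it was 0.490 times that of replicate 1 for Chek1, 0.661 for Fancc, 0.698 for Palb2 and 0.756 for Rad51c, and it was 2.48 times as long for Fancg. In Chek1 the retained-intron transcript Chek1-206, of 508 nucleotides, was listed at 0 in replicate 1 and held 33.54% of the TPM in replicate 2, and Chek1-203, of 310 nucleotides, held 43.35% and 39.95%. Of the gene's 1188 and 2800 counts, Chek1-203 held 34 and 103, and Chek1-206 held 276 in replicate 2. Full coding transcripts of Chek1 had 4.14 and 5.74 TPM, a log2 difference of 0.46. By CPM none of the 4 members remained past 2-fold, and the only member past it was Rad51b, at 246 counts in replicate 1 and 198 in replicate 2, lower in replicate 2, beside 3.21% of the genes in that direction and 5.43% in either. Rad51b was also the only member past 2-fold with counts scaled by TMM or by DESeq2 size factors, beside 5.46% and 5.47% of the genes. At 1.5-fold in TPM the count of members was 17, of which 16 were higher in replicate 2 and Fance was lower, beside 30.2% of the genes in either direction. Relative to the median protein-coding gene in TPM, 3 members were past 2-fold, Chek1 and Palb2 higher and Fance lower in replicate 2, beside 7.75% of the genes in either direction.

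**Figure D4:**
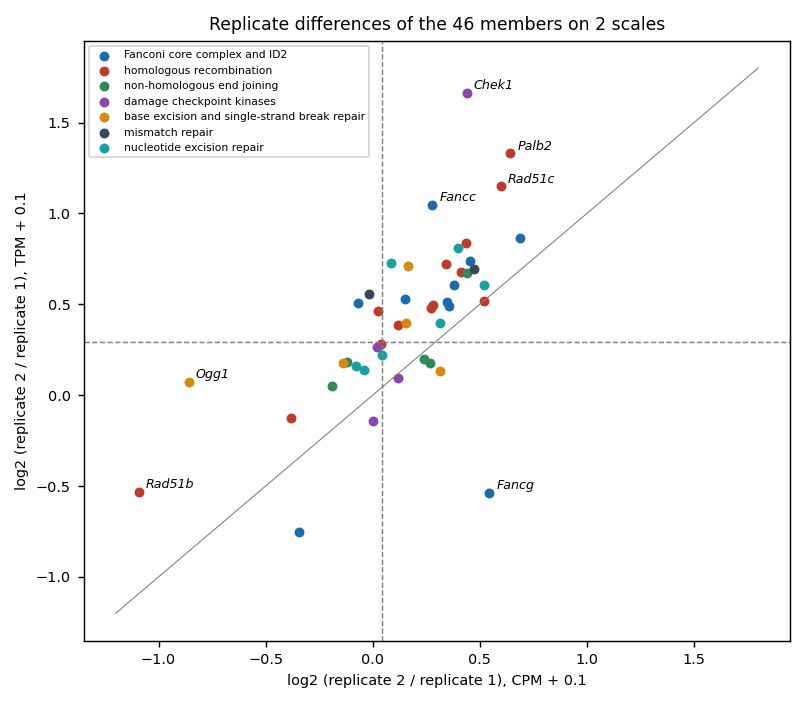
Log2 ratio of replicate 2 to replicate 1 for the 46 members, in CPM on the horizontal axis and TPM on the vertical axis, each with 0.1 added; dashed lines mark the medians of 9900 protein-coding genes (0.05 in CPM and 0.29 in TPM) and the solid line equal values. Chek1, Palb2, Rad51c and Fancc lie highest in TPM and well above the solid line, while Fancg lies below it.

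Other gene groups also differed between the replicates. All 12 genes of an S phase and mitosis list, led by Pcna, had a higher TPM in replicate 2, with a summed level of 471 against 640 TPM. Their median log2 difference was 0.45 in TPM and 0.22 in CPM, beside 0.29 and 0.05 over the 9900 protein-coding genes. All 6 erythroid genes, led by Car1 at 9.74 and 66.86 TPM, were higher in replicate 2, 27.6 against 101 TPM in sum, and all 8 neutrophil genes, led by S100a8, were lower. The HSC list had a median log2 difference of 0.02 in TPM, below the 0.29 of the protein-coding genes, and 6 of its 10 genes were higher in replicate 2. The labels give a fragment size range of 172 to 1452 nucleotides for replicate 1 and 232 to 1000 for replicate 2. The part of these differences in those of the repair genes was not tested.

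Of 90 further genes that belong to the same routes without being members, 84 reached 1 TPM in each library. All were detected in 4 routes, the Fanconi pathway (10 of 10), the checkpoint (15 of 15), mismatch repair (5 of 5) and nucleotide excision (16 of 16). In homologous recombination 19 of 20 were detected, in end joining 6 of 8 and in base excision 13 of 16. By the mean of the 2 library medians, these genes gave another order of routes than the members. Nucleotide excision was highest at 11.2 TPM, against 4.625 TPM for its members, and end joining lowest at 3.295 TPM, against 7.955 TPM. The Fanconi genes lay at 4.58 TPM, recombination at 4.22, base excision at 5.355, mismatch repair at 9.28 and the checkpoint at 9.685 TPM. The Fanconi group ran from Usp1, the deubiquitinase of FANCD2, at 22.86 and 30.50 TPM, to Faap24 at 1.74 and 1.97 TPM. The range in recombination was from Swi5, a recombination accessory factor, at 37.15 and 74.62 TPM, to the nuclease gene Slx1b at 1.02 and 0.84 TPM. End joining ran from Rif1, which protects broken ends from resection, at 21.48 and 27.17 TPM, to the polymerase gene Polm at 0.24 and 1.05 TPM. Among checkpoint genes Topbp1, the activator of ATR, had 29.48 and 48.79 TPM and Rad9a, of the clamp it binds, 1.97 and 1.94 TPM. In base excision Apex1, the main endonuclease at sites without a base, had 26.64 and 31.11 TPM, and the glycosylase gene Neil2 0.14 TPM in replicate 1 and 0 in replicate 2. In mismatch repair the lowest was Mlh3 at 1.57 and 1.68 TPM. In nucleotide excision Ddb1 had 35.68 and 46.09 TPM and Ercc8 2.21 and 2.05 TPM.

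Of these 90 genes, 85 had a mean of at least 1 TPM and entered the comparison between replicates. Past 2-fold higher in replicate 2, with bounds that did not overlap, were 8, among them Faap100, Exo1, Swi5, Polb, Lig1, Cetn2 and Gtf2h2. The 8 are 8.89% of all 90, a wider base than the 85 that could be called, so their share of the 85 is higher. Of protein-coding genes with such a mean 7.01% were called in that direction. Polm, higher in replicate 2, and Neil2, lower, also met the fold and bounds but had a lower mean and were not counted. The replicative ligase gene Lig1 had 11.31 and 28.15 TPM and 1.53-fold in CPM. Polb, the polymerase of base excision, had 3.74 and 8.51 TPM and 1.87-fold in CPM. Of the 85, the only gene past 2-fold lower was Rad52, an annealing factor, with 5.67 and 2.47 TPM and 0.447 times the CPM of replicate 1. Rad52 was the only 1 of these 9 genes past 2-fold in CPM. Outside the 9, Mad2l2 had 0.385 times the CPM of replicate 1, from 121 and 81 counts. Its levels of 1.66 and 0.83 TPM were not past 2-fold.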

How the data were processed

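Total RNA-seq of 2 HSC libraries was analysed from the deposited gene and transcript tables. The sample text files name mm10 and GENCODE M4 as their references, and no source used here gives an aligner or counter. Per the file headers, the deposited columns hold expected counts (estimates with fractions), TPM, FPKM and the posterior means of each. Deposited interval bounds and posterior SDs were read as a score on the same scale. Each transcript also has a deposited isoform percent, its share of the TPM of its gene. TPM was scaled by the authors over all features of a table. The headers do not state the level of the bounds.

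Names, classes and coding lengths came from GENCODE M21, by identifier without version, and promoter sequences from RefSeq (GRCm38.p6). The members, routes, pairs and further lists were chosen with earlier results of these data known. Named genes were all members, the highest and lowest further gene of each route and those apart between replicates, the highest marker of each list shown and those at 0, except a few that are not reported here. Slamf1, Mad2l2, genes with a neighbouring start and overlapping genes were named after their values were seen. Ratios used a pseudocount of 0.1. A pair was ordered when both libraries gave 1 direction and bounds did not overlap in either. A difference between replicates was called only at a mean of at least 1 TPM. For CPM, exact Poisson bounds of the counts took the place of the deposited ones. Size factors came from edgeR 4.0.16 (TMM) and DESeq2 1.42.0 on rounded expected counts, in R 4.3.3, and all else from Python 3.11.15. No differential test was made. The rule for differences between replicates was tested on simulated counts with the same effective length in both libraries. The order rule was tested on a constructed pair. Other steps, and changes in effective length, were not tested in this way. Full coding transcripts, routes without their highest member, CPM for replicate differences and centring on the median gene were chosen after seeing the data.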

Additional observations from a re-analysis of the deposited data

How the results depend on the processing

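The number of members detected was 36 to 46 over the alternatives, the lowest by full coding transcripts. Route levels (log2, relative to all members) moved by more than the replicate spread as follows. In CPM, which is not divided by length and so carries gene length, they were -0.80 for the Fanconi route, 0.80 for homologous recombination, whose sign had differed between the libraries, 0.97 for end joining, 1.5 for checkpoint kinases, -0.10 for base excision, which turned its sign, and 1.95 for mismatch repair. By full coding transcripts they were -1.06 for the Fanconi route, 0.12 for homologous recombination, within a spread that includes 0, 1.14 for end joining, 0.34 for base excision, 0.44 for mismatch repair and -0.52 for nucleotide excision. Without their highest member, end joining lay at 0.20, base excision at 0.017 and mismatch repair at 0.71. A pseudocount of 1 gave 0.68 for checkpoint kinases, and posterior means 0.082 for base excision. Ordered pairs numbered 17 with a 1.5-fold rule in place of bounds. In CPM the mean log2 ratio turned its sign for Brca1/Brca2 (-0.33), Brip1/Blm (0.090, with opposite signs in the 2 libraries), Prkdc/Xrcc5 (1.09), Atm/Atr (0.30) and Ercc1/Ercc4 (-1.69). By full coding transcripts it turned for Mre11a/Nbn (-0.020, opposite signs again), Xrcc1/Lig3 (0.30), Atm/Atr (0.22), Chek1/Chek2 (-0.10, level in replicate 2), Ercc1/Ercc4 (-2.44), Ercc2/Ercc3 (-0.68) and Slx4/Ercc4 (-0.40), and the replicate differences of Fancc (-0.22) and Rad51c (-0.38) turned. Members apart between replicates numbered 1 by TMM, DESeq2 size factors and CPM, beside 5.46%, 5.47% and 5.43% of genes, and 17 with a 1.5-fold rule, beside 30.2%. The same transcript led in 12 of 18 members with a mean of at least 5 TPM, a count that is lower because fewer members enter. Beyond these constructions the cause was not tested. With 2 libraries, each alone lies within the spread of both by construction. Replicate differences and shared leading transcripts need both libraries, so none was computed without a replicate. No paired analysis was possible because there is 1 group. Counts of 77 to 162 for Lig4 and 130 to 138 for Ogg1 limit their precision.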
